A study of Mus musculus with 8 samples.

Results

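The MAL family of small membrane proteolipids was followed in mouse dorsal root ganglia (DRG), the ganglia that hold the cell bodies of somatosensory neurons together with their glia. Its 4 members in the mouse are Mal, Mal2, Mall and Pllp. They were taken as a family because Mal2 was about 3.5-fold lower when Dach1 was overexpressed in sensory neurons, so the family was chosen by the difference in Mal2 level between the groups, which is given below as a description, and no p-value is given for a member. All 4 were among the 55414 genes counted and among the 17721 genes with enough counts to be tested.

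DRG were dissected at E18.5, shortly before birth, and measured by bulk RNA-seq in 8 libraries. The 4 AD1 OE libraries came from AdvillinCre/+;Rosa26Dach1/+ embryos. Their Cre recombinase sits in the Advillin gene, is active in sensory neurons, and removes a stop cassette in front of a Dach1-IRES-EGFP copy at Rosa26. The 4 Control libraries came from Advillin+/+;Rosa26Dach1/+ embryos, which carry the same Rosa26 allele on the same mixed C57Bl/6J and CD1 background but no Cre. The libraries of each group stood for 4 embryos. The libraries held 22339059 to 44025625 counts. Dach1 was at 95.8 ± 5.27 CPM (counts scaled to equal library size; mean ± SD, n = 4) in AD1 OE and at 32.6 ± 1.64 CPM in the Control libraries. Avil, whose locus carries the Cre, was at 463 ± 12.0 CPM in AD1 OE against 891 ± 35.1 CPM in Control, which was 52.0% of the Control level. The labels were therefore matched by the targeted gene in 8 of 8 libraries. The neuronal marker Nefm was at 2389 ± 146 and 2415 ± 167 CPM in AD1 OE and Control. The myelin gene Mbp was at 285 ± 29.0 and 285 ± 29.6 CPM, so both neurons and glia were present in every group.

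MAL proteins cross the membrane several times through a MARVEL domain and gather with cholesterol and sphingolipids in ordered membrane patches. MAL is known as a proteolipid of myelin in Schwann cells and oligodendrocytes, and as part of the machinery that carries proteins to the apical face of epithelial cells. MAL2 is known for the transcytotic route of polarised cells, by which cargo crosses from the basolateral to the apical side, and MALL, also called BENE, for raft-like membranes of epithelium and endothelium. PLLP, or plasmolipin, is a further proteolipid of myelin and of kidney epithelium. In a ganglion that holds neurons and myelinating glia, the family therefore brings together genes with glial and with non-glial histories.

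The coding sequences show how far apart the members are, which bears on whether reads of a member could be counted for another. The coding sequence, stop codon included, was 462 bases in Mal, 528 in Mal2, 465 in Mall and 549 in Pllp (GENCODE M21 annotation, GRCm38), which corresponds to 153, 175, 154 and 182 residues. Over aligned coding bases Mal2 was 53.6% identical to Mal, 53.2% to Mall and 45.3% to Pllp. The stretch of 60 aligned bases with the most positions shared by all 4 members is printed below 5′ to 3′ on the coding strand, with the 21 positions identical in all 4 in capitals. It runs from coding base 109 in Mal, 145 in Mal2, 127 in Mall and 151 in Pllp, counted from the A of the start codon.
Mal: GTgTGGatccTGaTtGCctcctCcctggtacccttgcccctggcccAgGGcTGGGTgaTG
Mal2: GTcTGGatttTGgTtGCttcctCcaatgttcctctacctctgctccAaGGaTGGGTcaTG
Mall: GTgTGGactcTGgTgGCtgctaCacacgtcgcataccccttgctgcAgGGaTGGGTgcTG
Pllp: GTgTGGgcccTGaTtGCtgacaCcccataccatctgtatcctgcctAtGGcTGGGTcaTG

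Even within this most alike stretch, Mal2 matched Mal at 42 of 60 bases, Mall at 38 and Pllp at 34. The longest run of identical bases between the transcripts of any pair of members was 14 bases, found between Mal2 and Pllp. No stretch of 50 bases of Mal, Mal2 or Mall occurred in a transcript of any other annotated gene on either strand. Pllp differed: 887 of its 2033 stretches of 50 bases (43.6%) were also found in Gm45767, a gene annotated on the opposite strand. The library kit keeps the strand, but whether the counting used it is not stated, so the Pllp counts are uncertain. Gm45767 itself was at 1.20 ± 0.276 CPM in AD1 OE against 0.977 ± 0.239 CPM in Control, about the level of Pllp.

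Levels were compared between members per kilobase of exon, as RPKM computed from the CPM. In Control the order was Mal, Mal2, Mall and Pllp, at 49.6 ± 3.97, 16.2 ± 1.30, 1.12 ± 0.257 and 0.548 ± 0.179 RPKM. Mal lay above 95.5% of the tested genes with an annotated length, Mal2 above 81.4%, Mall above 24.1% and Pllp above 14.6%. Each neighbour in this order was separated from the next by more than the spread of the libraries, since the lowest Mal library was at 45.8 RPKM and the highest Mal2 library at 17.1, the lowest Mal2 library at 14.3 and the highest Mall library at 1.50, and the lowest Mall library at 0.959 and the highest Pllp library at 0.704. In AD1 OE the order was kept, at 48.6 ± 5.50 RPKM for Mal, 4.60 ± 0.686 for Mal2, 0.999 ± 0.214 for Mall and 0.552 ± 0.199 for Pllp. There the ranges of Mall and Pllp came close together, with the lowest Mall library and the highest Pllp library at 0.770 and 0.769 RPKM. When the longest transcript was taken as the length, these 2 ranges overlapped, with the highest Pllp library at 0.832 RPKM. The family in these ganglia was thus made up mostly of Mal, with Mal2 second and the other members near the lower end of the tested genes.

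**Figure D1:**
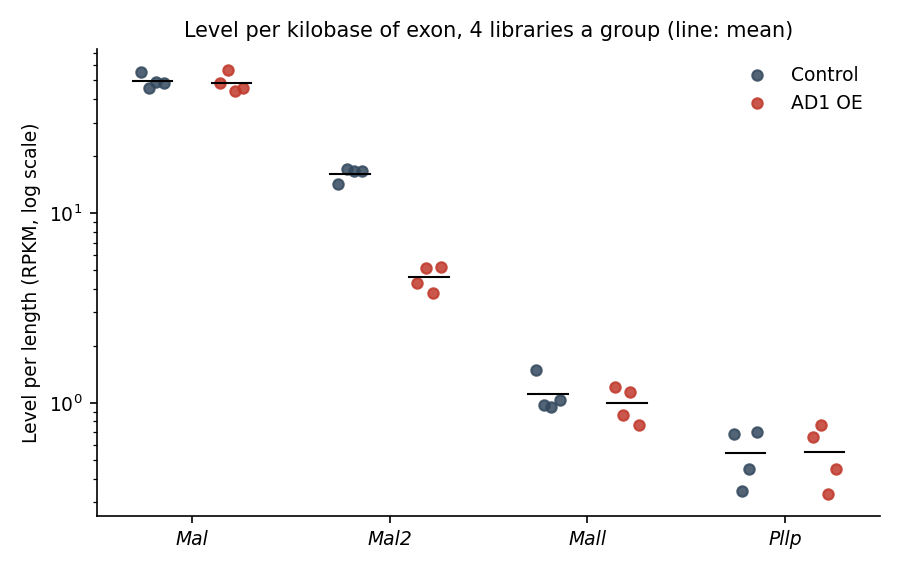
Level per kilobase of exon (RPKM, logarithmic axis) of the 4 members in the 4 Control and 4 AD1 OE libraries, with a line at each mean. Mal2 sits between 14.3 and 17.1 RPKM in Control and between 3.78 and 5.18 in AD1 OE, while the ranges of the other members overlap between the groups.

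Mal2, on chromosome 15, was the member whose level separated the groups. Its counts were 560, 342, 292 and 425 in AD1 OE replicates 1 to 4 and 936, 1626, 1247 and 1743 in Control replicates 1 to 4. Scaled to the library sizes, these were 12.7, 15.2, 11.2 and 15.3 CPM in AD1 OE against 42.1, 50.6, 49.0 and 49.2 CPM in Control. The groups did not overlap, and the highest AD1 OE library was well below the lowest Control library. The mean was 13.6 ± 2.03 CPM in AD1 OE against 47.7 ± 3.82 CPM in Control, so that Mal2 stood at 28.5% of its Control level, 3.51-fold lower, with a log2 fold change of -1.82 ± 0.10 (SE). This is the value by which the family was chosen.

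Mal, on chromosome 2, had nearly the same level in both groups. It was at 134, 157, 122 and 127 CPM in AD1 OE replicates 1 to 4 and at 153, 127, 136 and 135 CPM in Control replicates 1 to 4. The groups overlapped, with the lowest library and the highest library both in AD1 OE. The log2 fold change was -0.03 ± 0.07 (SE), on 3204 to 5927 counts per library. The fitted difference was thus within its own error in the most deeply counted member.

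Mall lies next to Mal on chromosome 2, with no tested protein-coding gene between them. It was at 2.44, 1.74, 2.29 and 1.55 CPM in AD1 OE replicates 1 to 4 and at 3.01, 1.96, 1.92 and 2.09 CPM in Control replicates 1 to 4. The groups overlapped, and Control replicate 1 stood above all other libraries. The log2 fold change was -0.14 ± 0.20 (SE), and at 39 to 108 counts per library a small change was not detectable.

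Pllp, on chromosome 8, was the lowest member. It was at 1.38, 1.60, 0.688 and 0.934 CPM in AD1 OE replicates 1 to 4 and at 1.44, 0.716, 0.942 and 1.47 CPM in Control replicates 1 to 4. Both groups held a pair of higher and a pair of lower libraries and covered nearly the same range. The log2 fold change was 0.02 ± 0.29 (SE) on 18 to 61 counts per library, and it moved to -0.38 when a sex score, the log2 ratio of Y-linked genes to Xist, was added to the fit. Y-linked genes were expressed in AD1 OE replicates 1, 2 and 4 and in Control replicate 4.

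**Figure D2:**
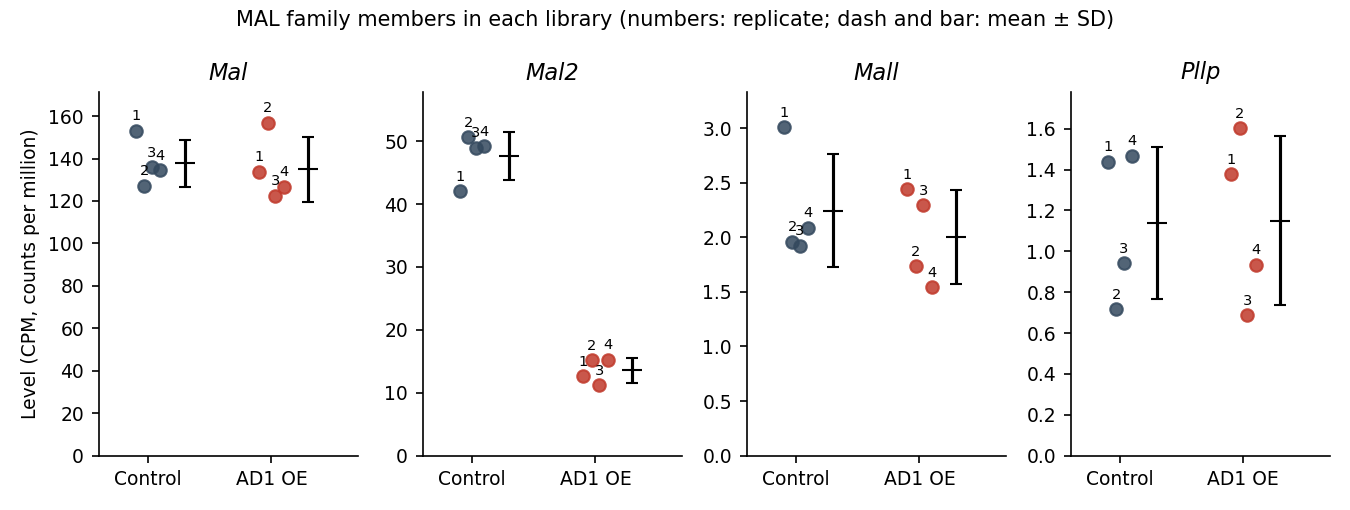
Level (CPM, linear axes from 0, one scale per gene) of each member in every library, with replicate numbers and mean ± SD (n = 4). The AD1 OE libraries of Mal2 lie between 11.2 and 15.3 CPM and the Control libraries between 42.1 and 50.6, while the groups overlap for Mal, Mall and Pllp.

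The make-up of the family shifted accordingly. Mal2 gave 19.9 to 26.7% of the family's summed RPKM in the Control libraries and 7.67 to 9.95% in the AD1 OE libraries. Mal gave 73.5 ± 2.50% of it in Control and 88.7 ± 0.754% in AD1 OE. The ratio of the mean Mal level to the mean Mal2 level, both in RPKM, was 3.07 in Control and 10.6 in AD1 OE, whereas the ratio of Mal to Pllp was 90.5 and 88.0.

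A gene counted as called when its adjusted p was below 0.005 (edgeR quasi-likelihood test, Benjamini-Hochberg over all tested genes) and its log2 fold change exceeded 0.25 in size. Of the 4 members 1 passed this rule, Mal2, the gene that selected the family, where 2.57% of all tested genes were called in either direction, 1.78% as lower and 0.784% as higher. The libraries of the groups did not overlap for 1 of 4 members and for 12.9% of all tested genes. Since the same contrast chose the family, nothing is read from these counts. By log2 fold change Mal2 took place 21 among the 316 called decreases, and place 15 among the 308 of them whose mean level reached 1 CPM.

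None of the genes nearest to Mal2 was called. The 6 nearest tested protein-coding genes, 3 on each side, were Tnfrsf11b, Samd12, Ext1, Ccn3, Enpp2 and Taf2, with log2 fold changes from -0.10 to 0.05. Ccn3, a secreted matricellular protein, was the most abundant of them and was at 163 CPM in AD1 OE against 175 CPM in Control (log2 fold change -0.10 ± 0.07, SE). Around all 4 members there were 18 such neighbours outside the family, of which 0 were called by edgeR and 1 by DESeq2, while 2 had an unadjusted p under 0.05. These were Arl2bp, beside Pllp (110 against 118 CPM, edgeR adjusted p = 0.124), and Kcnip3, the third gene from Mal (29.8 ± 1.39 against 35.6 ± 2.08 CPM, log2 fold change -0.26 ± 0.06, edgeR adjusted p = 0.0178). Kcnip3 encodes a calcium-binding protein that acts on potassium channels and on transcription. The groups did not overlap for either of them, 2 of 18 neighbours beside the 12.9% of all tested genes, and an unadjusted p under 0.05 was found for 18.6% of all tested genes.

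The wider MARVEL superfamily places the 4 members among related proteins of the synaptic vesicle (synaptophysins and synaptogyrins), of tight junctions (Ocln, Marveld2) and of the CMTM group. Of 23 such relatives 19 were tested, and 1 was called lower and 0 higher. Over all tested genes 1.78% were called lower and 0.784% higher, and from 1 gene no share is read. The one called was Synpr, or synaptoporin, a synaptic vesicle protein. Synpr was at 73.1, 75.9, 66.9 and 82.7 CPM in AD1 OE replicates 1 to 4 and at 317, 321, 327 and 316 CPM in Control replicates 1 to 4. The groups were far apart, with a log2 fold change of -2.10 ± 0.05 (SE; edgeR adjusted p = 2.05e-09). Synpr had the largest fall of the 19 tested relatives, and earlier results of these samples had already shown it. Mal2 was chosen by its own fall, so neither gene is independent evidence.

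The other abundant relatives differed less between the groups. Syp, the synaptophysin gene, was at 298 ± 12.3 CPM in AD1 OE against 315 ± 13.4 CPM in Control (edgeR adjusted p = 0.363). Myadm, a raft-associated MARVEL protein, was at 340 ± 8.98 and 373 ± 19.5 CPM (edgeR adjusted p = 0.125). Syngr3, a further vesicle protein, was at 129 ± 4.10 and 150 ± 6.28 CPM, and its log2 fold change of -0.22 ± 0.04 was below the size required although its edgeR adjusted p was 0.00456. For both Myadm and Syngr3 every AD1 OE library was below every Control library. With Synpr, the groups did not overlap for 3 of the 19 relatives, beside 12.9% of all tested genes. The median log2 fold change of the 19 relatives was -0.07, beside 0.0018 over all tested genes, with 14 negative and 5 positive values.

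Among the 21 genes whose proteins share lipid rafts or apical transport with MAL proteins, 19 were tested. Of these 2 were called lower and 0 higher, beside 1.78% and 0.784% of all tested genes. Both called genes encode caveolins, the coat proteins of caveolae. Cav1 was at 132 ± 9.18 CPM in AD1 OE against 194 ± 4.23 CPM in Control (log2 fold change -0.56 ± 0.05, SE; edgeR adjusted p = 1.52e-05). Cav2 was at 32.5 ± 2.44 and 56.1 ± 1.80 CPM (-0.79 ± 0.06; edgeR adjusted p = 5.61e-06). Every AD1 OE library was below every Control library for both. The cavins, which build caveolae together with the caveolins, were not called: Cavin1 was at 162 ± 15.3 CPM in AD1 OE against 159 ± 14.7 CPM in Control.

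The known partners of MAL2 and MAL in transport were not called either. Inf2, the formin that acts with MAL2 in transcytosis, was at 117 ± 7.78 CPM in AD1 OE against 113 ± 2.28 CPM in Control, and its GTPase companion Cdc42 was at 414 ± 15.4 and 427 ± 4.40 CPM. Tpd52, a binding partner of MAL2, was at 187 ± 11.0 and 165 ± 7.07 CPM. It was higher in each AD1 OE library than in any Control library, with a log2 fold change of 0.18 ± 0.05 (SE; edgeR adjusted p = 0.0343), on the other side from Mal2. Among the most abundant genes of this list, Anxa2 was at 1292 ± 41.3 and 1289 ± 14.9 CPM, S100a10 at 412 ± 18.48 and 440 ± 38.23 CPM, and Flot2 at 388 ± 26.1 and 405 ± 16.0 CPM. The median log2 fold change of the list was 0.0013, close to that over all tested genes.

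**Figure D3:**
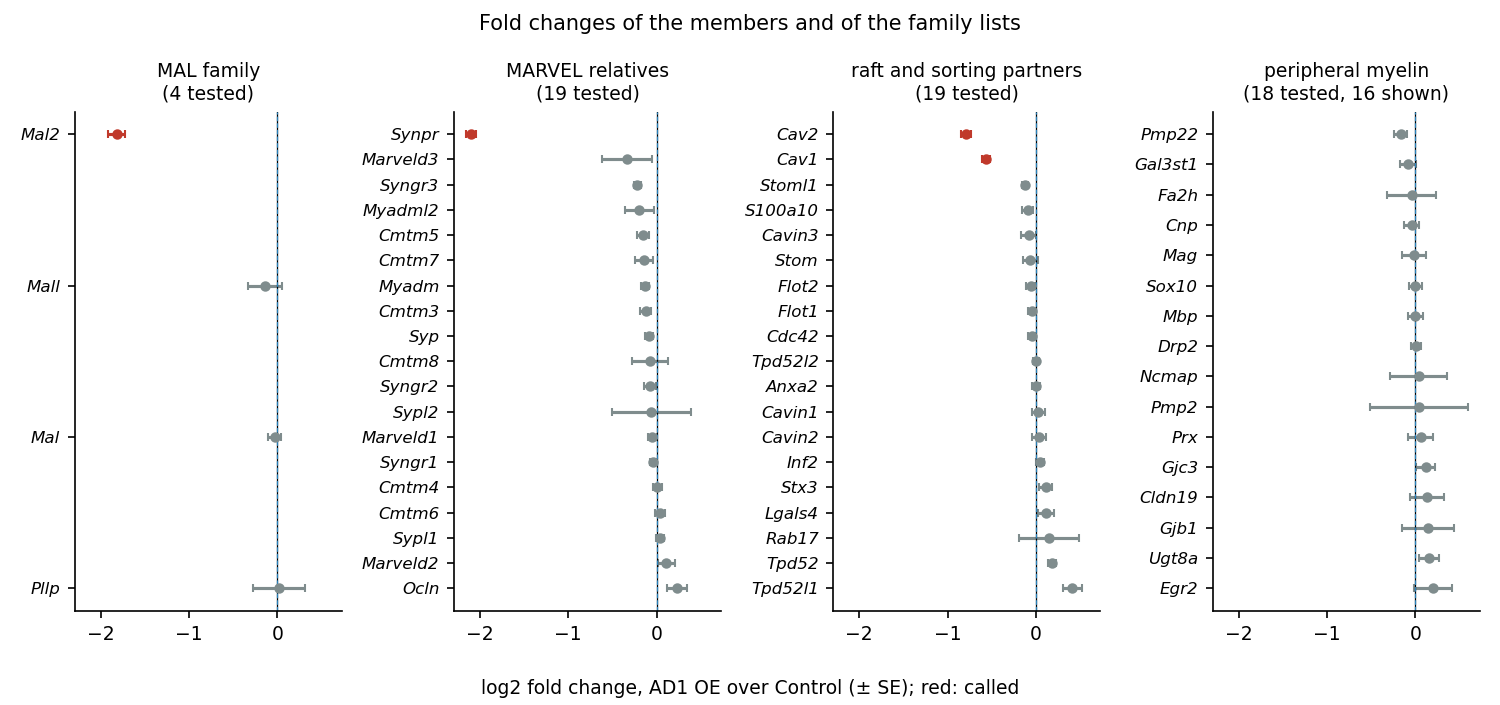
Log2 fold change of AD1 OE over Control (points, with SE as bars) for the 4 members and for the tested genes of the 3 related lists (16 of the 18 myelin genes are drawn), with called genes in red and a dashed line at the median of all tested genes, 0.0018. Mal2 at -1.82 and Synpr at -2.10 stand apart, Cav1 and Cav2 follow, and the 16 myelin genes drawn lie close to 0.

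Mal and Pllp are myelin proteolipids, and no myelin gene of peripheral glia was called. Of the 18 genes in the list 18 were tested and 0 were called by edgeR or by DESeq2, with 1 gene (Pmp22) at an unadjusted p under 0.05, or 5.56% beside the 18.6% of all tested genes. The median log2 fold change was 0.01, with 5 negative and 13 positive values. Pmp22, the most abundant of them, was at 406 ± 41.0 CPM in AD1 OE against 456 ± 29.8 CPM in Control (edgeR adjusted p = 0.227). Cnp, a myelin enzyme, was at 160 ± 17.4 and 164 ± 18.8 CPM in the same order. The ratio of Mal to Mbp in CPM was 0.473 ± 0.00933 in AD1 OE and 0.485 ± 0.0293 in Control.

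Mal and Pllp also varied together with these genes from library to library within the groups. For each gene the deviation of log2(CPM + 0.5) from its group mean was taken in all 8 libraries, and these deviations were correlated across libraries as a description. For Mal the median Pearson r with 16 myelin genes of at least 1 CPM was 0.82, and 15 of the 16 were above 0, while the median r with all 15516 genes compared was -0.02. Cnp (0.93) and Mag (0.91) were among the highest of the list. For Pllp the median was 0.79 and 16 of 16 were above 0, with Mbp at 0.94. For Mal2 the median was 0.20 and for Mall 0.05. The myelin proteolipids of the family thus had the higher values and the other pair the lower, a difference that was not tested.

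The libraries differed in their myelin level as follows. AD1 OE replicate 2 had the highest Mal and Pllp levels and also the highest summed level of the myelin list, 2097 CPM against 1573 to 1715 CPM in the other AD1 OE libraries. Control replicate 1, with the highest Mal of its group, had 1927 CPM against 1627 to 1881 CPM. By the mean deviation of the myelin genes, however, Control replicate 4 stood highest of its group, at 0.150 against 0.0839 in Control replicate 1. Mal was slightly below its group mean in Control replicate 4, with a deviation of -0.0290. Taken against the mean deviation of the myelin genes, r was 0.87 (Spearman's rho 0.86) for Mal and 0.90 (rho 1.00) for Pllp. Without the 2 libraries farthest from the median, AD1 OE replicate 2 and Control replicate 4, r over the other 6 was 0.96 for Mal and 0.95 for Pllp. Leaving out each library in turn gave an r of 0.73 to 0.96 for Mal, lowest without AD1 OE replicate 2 and highest without Control replicate 4, and of 0.88 to 0.94 for Pllp. Without the same 2 libraries r changed from 0.30 to -0.25 for Mal2 and from 0.03 to 0.62 for Mall. In all of these leave-outs the deviations stayed those from the full group means, which included the libraries left out. The points share their libraries and depth. Control replicate 1 also had the highest summed level of oligodendrocyte genes, cells that express Mal too, at 22.7 CPM against 8.78 to 15.1 CPM in the other 7 libraries. AD1 OE replicate 2 also held the highest summed level of erythroid genes, 736 CPM against 205 to 368 CPM in the other 7 libraries, and the part of either in the pattern was not tested.

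**Figure D4:**
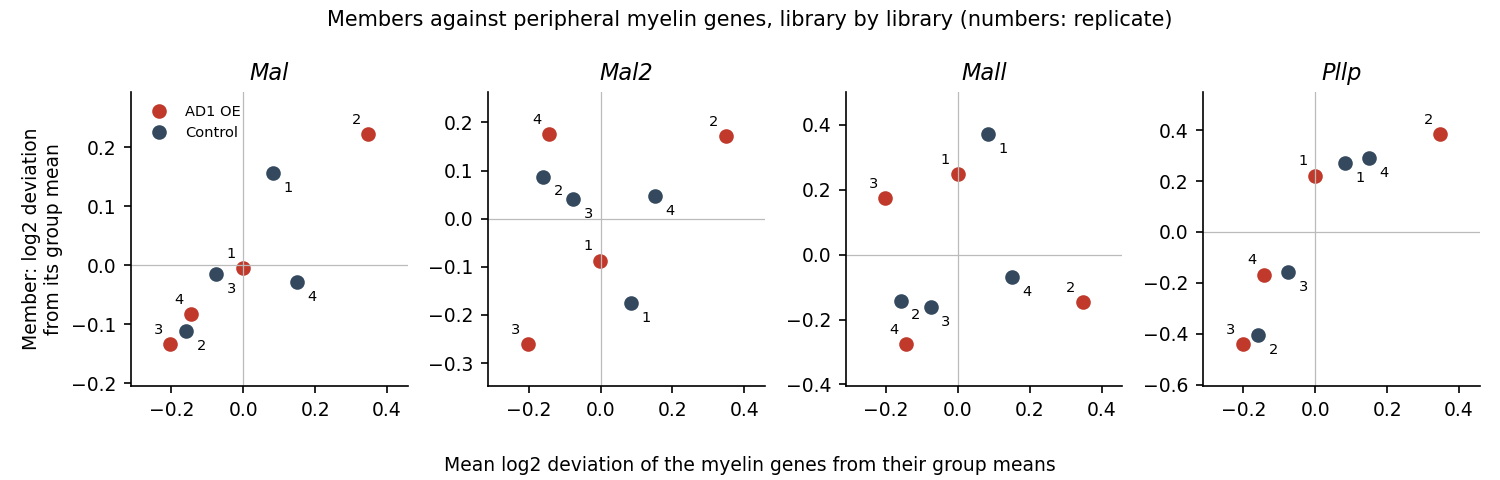
Deviation of each member from its group mean against the mean deviation of 16 myelin genes, both on the log2(CPM + 0.5) scale, one point per library (n = 8) with replicate numbers. Mal (r = 0.87) and Pllp (r = 0.90) rise with the myelin genes, while Mal2 (r = 0.30) and Mall (r = 0.03) are scattered.

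Across all genes of at least 1 CPM, those with deviations most like a member's were listed in the same way. For Mal2 these were Slc6a15, a neutral amino acid transporter (r = 0.99), Gabra2, a GABA-A receptor subunit (0.99), Tmem126b, C9orf72 and Zfp770 (0.99 each). For Mal they were Rpl15 (1.00), Psmd10, Stard13, Haus3 and Gnl3 (0.98 each). For Mall they were Papss1, Lrrk1 and Cbln1 (0.99 each) and Abi3bp and Ctdsp1 (0.98 each), and for Pllp Bcl3 (0.99), Sdc2, Acadsb and Gnpda1 (0.98 each) and Uqcc1 (0.97). No gene of the 3 related lists was among them. With 8 libraries and 15516 genes compared, single values of this size are a description only.

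Bulk RNA cannot separate fewer cells of a type from less RNA per cell, so the marker genes of the cells in a ganglion are given beside the fall of Mal2. In sections of AD1 OE ganglia at E18.5, the study counted neurons stained for Islet1, Prdm12, TrkB and TrkC. It reported that the main neuron subtypes were present in appropriate numbers. Of 11 sensory neuron markers 0 were called by edgeR or DESeq2, with 1 at an unadjusted p under 0.05. Their summed level was 10360 to 11200 CPM in AD1 OE against 10760 to 11340 CPM in Control. Of 13 nociceptor markers 6 were called lower and 0 higher, beside 1.78% and 0.784% of all tested genes. Their median log2 fold change was -0.47, with 9 negative and 4 positive values. Their summed level was 3165 to 3396 CPM in AD1 OE against 3846 to 4236 CPM in Control. The called genes were Scn10a, the sodium channel Nav1.8 (780 ± 54.3 against 1386 ± 79.6 CPM, log2 fold change -0.83), Trpm8, the cold receptor (16.8 ± 0.826 against 38.6 ± 3.84 CPM, -1.20), the neuropeptide genes Calca (-0.70) and Tac1 (-0.88), and Mrgprd (-0.77) and Gfra2 (-0.58). Of the other 7, Scn11a (678 against 587 CPM) and P2rx3 (446 against 398 CPM) were higher in each AD1 OE library than in any Control library without being called. Of 9 mechanoreceptor and proprioceptor markers 3 were called lower by edgeR (Mafa, Shox2 and Etv1) and 0 higher, beside the same shares of all tested genes. DESeq2 called 4, counted in either direction. Of the 9 log2 fold changes 7 were negative and 2 positive. Ntrk3, which encodes the receptor TrkC, was at 343 ± 30.9 CPM in AD1 OE against 278 ± 16.9 CPM in Control (edgeR adjusted p = 0.0171), with each AD1 OE library above every Control library. Another marker of the same list was lower in each AD1 OE library than in any Control library, without being called by edgeR. Of 7 satellite and immature glia markers 0 were called by either tool, with 1 at an unadjusted p under 0.05. The subtype markers thus held 9 genes called lower and uncalled genes on both sides of their Control level. Neither Mal and Pllp nor any glial or myelin marker was called. The part of the subtype markers in the fall of Mal2 was not tested.

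Mal2 and Mall are best known from epithelium, and epithelial markers were therefore looked at as well. Of 12 such markers 5 were tested and 0 were called by edgeR or DESeq2, while 3 had an unadjusted p under 0.05, a count over so few genes that no share is read from it. The summed level was 119 to 154 CPM in AD1 OE against 112 to 155 CPM in Control, nearly all of it Cdh1 (121 ± 11.5 and 116 ± 15.9 CPM). Epcam, a defining marker of epithelial cells, was below 1 CPM in every library. Krt19 was at 7.14 ± 0.604 CPM in AD1 OE against 14.4 ± 5.15 CPM in Control, with non-overlapping groups (log2 fold change -1.01 ± 0.21, SE; edgeR adjusted p = 0.0128). Krt8 was at 0.401 to 0.970 CPM in AD1 OE against 0.270 to 7.54 CPM in Control, where replicate 1 had the lowest level. Mal2 was also lowest of its group in that Control library, at 42.1 CPM against 49.0 to 50.6 CPM in the others. Of the 5 tested log2 fold changes 4 were negative and 1 was positive. Among the untested markers Krt5, Krt14, Krt15, Cldn4, Esrp1 and Grhl2 had a higher mean in AD1 OE, and Cldn7 a lower one. Krt5 was at 0.583 CPM in AD1 OE against 0.0297 CPM in Control, and Krt15 at 1.04 against 0.282 CPM. Both were highest in AD1 OE replicate 1, at 1.83 and 3.09 CPM. The part of epithelial cells in the level of Mal2 was not tested. Of the 39 tested markers of fibroblasts, endothelium, macrophages, erythroid cells, skeletal muscle, oligodendrocytes and spinal cord neurons, 0 were called by edgeR or DESeq2. An unadjusted p under 0.05 was found for 8 (20.5%), 4 of them among the 6 fibroblast genes. The summed level of each list overlapped between the groups. Single lists nevertheless leaned to one side. The log2 fold changes of the 4 tested oligodendrocyte genes were all negative (median -0.825). Those of the spinal cord neuron genes were negative in 4 and positive in 1 (median -0.754). Those of the 6 erythroid genes were all positive (median 0.427). The other lists held both signs.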

How the data were processed

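Poly(A) libraries were prepared by the authors with a stranded Illumina kit and demultiplexed with bcl2fastq 2.20.0.422. Reads were aligned by the authors to GRCm39 with STAR 2.7.8a and counted per Ensembl gene with featureCounts 2.0.1, and raw counts were deposited, one table per library, neither normalized nor pooled. Whether counting used the strand is not given in the sources used here. Of 55414 listed genes 52081 had a symbol in GENCODE M21 (GRCm38), an older build used only for names, chromosomes, neighbours, lengths and sequences. Members were matched by Ensembl ID. One listed gene, Vamp7, had no ID.

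The comparison was fitted with edgeR 4.0.16 under R 4.3.3 (filterByExpr, TMM, quasi-likelihood F test, Benjamini-Hochberg adjustment over 17721 genes). The SE given with a log2 fold change was derived from this test, as the size of the change divided by the square root of its F statistic. Calls required an adjusted p below 0.005 with a log2 fold change beyond 0.25 in size, as in the study. DESeq2 1.42.0, the study's tool, was an alternative, beside other scalings, filters, thresholds, a replicate block, a sex score and leaving out each library. RPKM used the union of annotated exons. The tests were checked on simulated counts. Members, lists and tests were chosen with earlier results of these data known. The text names the members, the genotype checks, the called and the 4 most abundant genes of each family list, neighbours, the 5 most alike genes and the called or most abundant markers. Other genes (Tpd52, Tpd52l1, Stoml1, Inf2, Cavin1, Krt19, Krt8, Epcam, Cnp, Mag, Scn11a, P2rx3, Ntrk3 and the untested epithelial markers) were chosen after their values were seen. Reads carried no molecular identifiers. Some single genes of the lists are not reported here.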

Additional observations from a re-analysis of the deposited data

Results flagged for a closer look

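A library was singled out where its gap to the nearest of the other 3 in its group exceeded the 95% critical value of Dixon's test, in 66 groups of 4 over 33 genes. This happened in 4 groups, and chance gives about 5% of groups. Among the members it was Mall in Control replicate 1, at 3.01 CPM against 1.92 to 2.09 CPM in the other Control libraries. Among the neighbours reported it was Arl2bp in AD1 OE replicate 2, at 113 CPM against 109 CPM at most in the others, and Ext1 in Control replicate 3, at 42.9 CPM against 45.0 to 45.3 CPM. Among the MARVEL relatives it was Syngr3 in AD1 OE replicate 3, at 135 CPM against 126 to 128 CPM.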

How the results depend on the processing

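The log2 fold change of Mal2, on which the family was chosen and which these refits of the same libraries do not support further, was -1.93 to -1.81 over the settings and -1.88 to -1.73 when each library was left out. Leaving out libraries gave -0.10 to 0.03 for Mal, -0.26 to 0.03 for Mall and -0.16 to 0.20 for Pllp, which straddle 0. A sex score as covariate moved Pllp to -0.38. The replicate numbers did not pair the libraries (correlations of -0.02, -0.06, -0.03 and 0.33 between same-numbered libraries). With the replicate block 348 genes were called instead of 455, and Mal2 was at -1.82. The sex score gave 327 called genes, 243 lower and 84 higher, where the main fit had 316 lower and 139 higher. Y-linked genes were expressed in more AD1 OE than Control libraries, so genotype and sex were partly mixed in every comparison. The number of called genes was 659 with DESeq2, 747 without the expression filter, 1161 at an adjusted p under 0.05 without a limit on the fold change and 129 at that p with a limit of 1. Leaving out a library gave 289 to 420, lowest without AD1 OE replicate 1. At an adjusted p under 0.05 alone, 2 MARVEL relatives, 5 raft and sorting partners (Cav1, Cav2 and Stoml1 lower, Tpd52 and Tpd52l1 higher) and 1 neighbour, Kcnip3, were called, and with the limit of 1 no raft partner (0). DESeq2 called 1 neighbour. Synpr, Cav1 and Cav2 were called in 14 of 14 fits. The longest-transcript length moved the Control level of Pllp from 0.548 to 0.592 RPKM. It also made the ranges of Mall and Pllp overlap in AD1 OE, and placed Mal2 above 74.5% of the tested genes in Control instead of 81.4%. At 18 to 108 counts per library, depth limits what can be seen in Mall and Pllp. The comparison with the mean of the myelin genes was added after the data had been seen.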
